A study of Papio anubis with 6 samples.

Results

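The genes of the cytosolic ribosomal proteins were examined in baboon bone marrow proerythroblasts. They were chosen by name alone, as the genes called RPL or RPS followed by a number, together with RPSA and the stalk genes RPLP0, RPLP1 and RPLP2. Of 39023 genes listed, 81 had such a name, and 80 of these had a mean level in both deposited tables, 51 of the large and 29 of the small ribosomal subunit. RPL10L was listed without a level. Of the 77 genes that encode the canonical proteins under an RP name, 74 were found with a level, 46 of the large and 28 of the small subunit. The other 6 genes with a level were RPL3L, RPL7L1, RPL22L1, RPL26L1, RPL39L and RPS27L, which encode paralogs of a canonical protein.

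Each ribosome joins a small subunit, which holds the messenger RNA and reads its codons, to a large subunit, which forms the peptide bonds. The proteins of both subunits are needed in fixed proportions, since each occurs in a ribosome in a fixed copy number. Red cell precursors make very large amounts of globin protein, and inherited loss of 1 copy of certain ribosomal protein genes causes Diamond-Blackfan anemia, in which erythroid precursors fail to develop.

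RNA was measured in CD105+CD34-CD117+bRBC+ bone marrow cells, a sorted fraction enriched in proerythroblasts, in 3 groups of 2 samples. Long-term treated (LTT) animals received RN-1, an inhibitor of the histone demethylase LSD1, at 0.25 mg/kg/day on 5 days a week for more than 265 days. Short-term treated (STT) animals received the same daily dose for 3 days, and control animals were untreated. STT and control samples came from the same 2 baboons and LTT samples from 2 other baboons, so that the long treatment and the animal cannot be told apart.

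The values are the authors' means over pooled libraries. They are given as log2 CPM, the log2 of the reads of a gene per 1000000 reads of its library, here called the level. The LTT table gives 1 value per gene over the 2 LTT and 2 control libraries, and the STT table gives 1 value over the 2 STT and 2 control libraries. The same 2 controls are in both tables. The libraries read the 3′ end of each polyadenylated transcript, so a CPM counts transcript ends and was not divided by gene length. A mean over 4 libraries of 2 groups carries no replicate spread, hence neither the effect of RN-1 within a table nor any difference between the tables was tested, and every comparison is a description. Fewer cells of a type and less RNA per cell cannot be told apart in such samples.

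The level of 17942 genes was given in the LTT table and of 16355 in the STT table, and the mean effective library size was 3634195 reads for the LTT table and 4310584 for the STT table. All 10 proerythroblast markers listed had a level, in the LTT table between 5.93 for TAL1 and 10.48 for ALAS2. CD34 and the 4 granulocyte and 4 T and NK cell markers had none in either table. Macrophage markers were low, with 6 of 7 having a level in the LTT table, where CD163 was highest at 1.97, and 4 of 7 in the STT table. Of 4 B cell markers MS4A1 had a level. In the LTT table this was the lowest value of all genes, which is 0 CPM once the lowest value is taken off. Of 4 megakaryocyte markers 3 had a level in the LTT table alone, with GP9 highest at 1.18.

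Ribosomal protein genes were far above the average gene, and spread over a wide range. The median level of the 80 genes was 8.47 in the LTT table, against 2.81 over all genes, and 8.32 in the STT table, against 2.85 over all genes. At level 8 or over, which is 256 CPM, were 45 of the 80 genes (56.25%) in the LTT table, against 4.01% of all genes. Level 10, or 1024 CPM, was reached by 14 of the 80 genes (17.5%) and by 0.496% of all genes. These counts of ribosomal protein genes were the same in the STT table, where 4.32% of all genes were at level 8 or over and 0.569% at level 10 or over. Together the 80 genes took 5.69% of the summed CPM of the LTT table and 5.81% of that of the STT table.

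**Figure D1:**
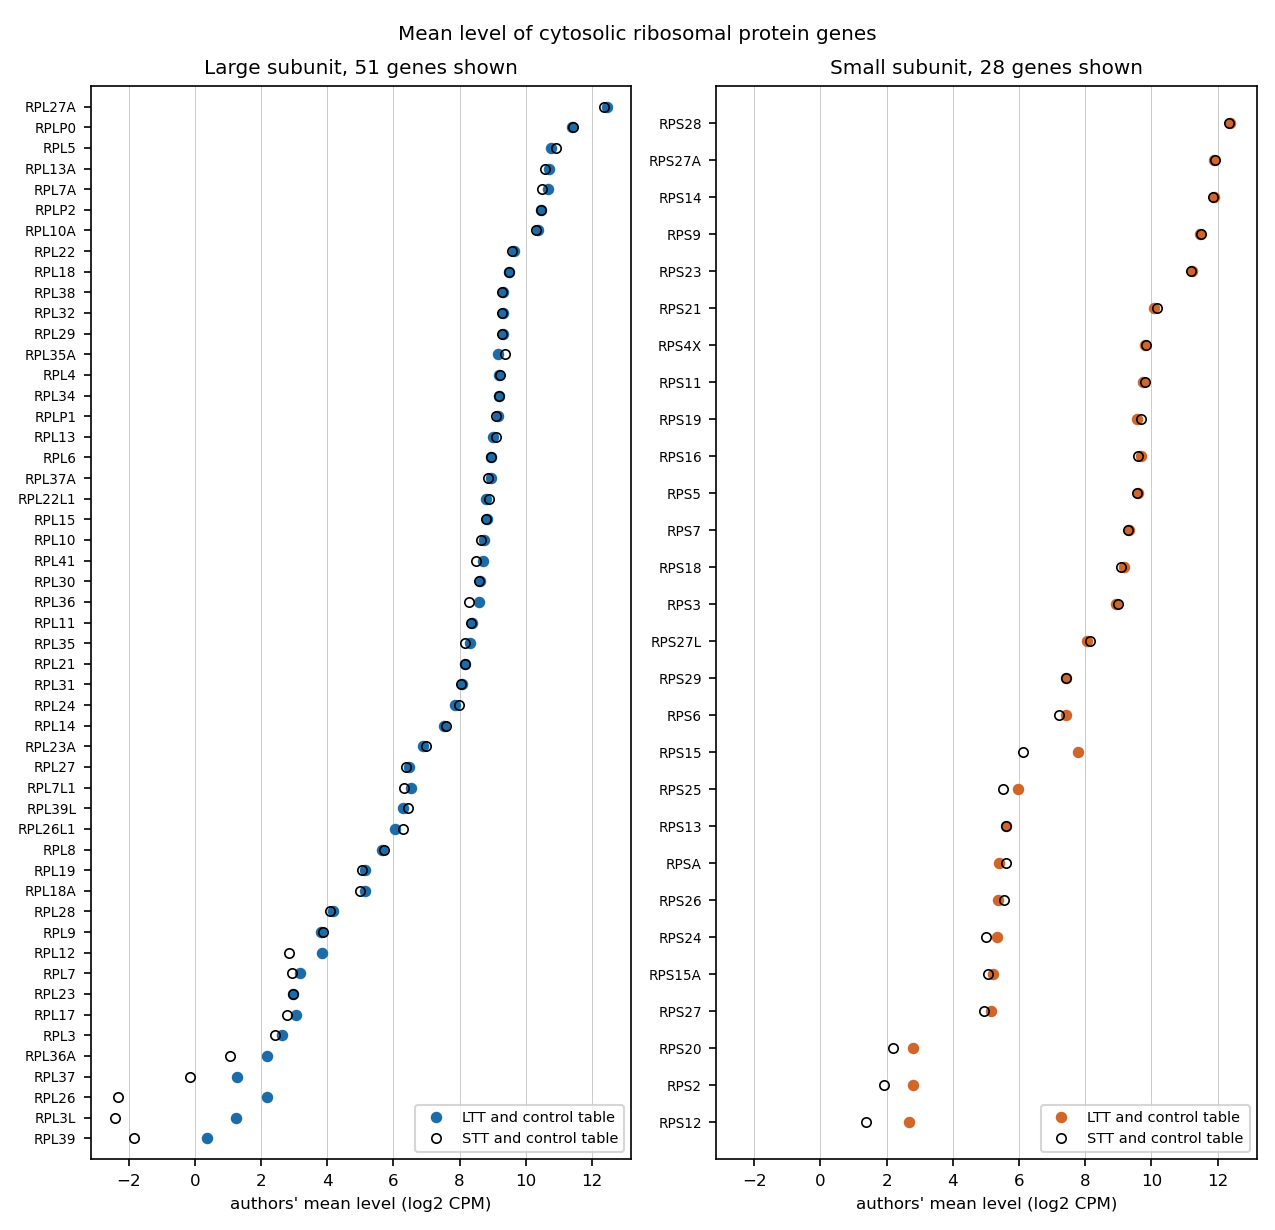
Authors' mean level in log2 CPM of the 51 large-subunit genes and 28 of the 29 small-subunit genes, in the LTT and control table (filled points) and the STT and control table (open points), ordered by the mean of both tables. RPL27A and RPS28 stand at the top of their subunits, the points of a gene lie close together down to a level of about 4 except for RPS15, and the open points of the lowest genes lie further to the left.

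The most abundant were genes of both subunits. RPL27A, a large-subunit protein, was the highest with 5595 CPM in the LTT table and 5309 CPM in the STT table, and ranked 8 among all genes of each table. RPS28, a small-subunit protein mutated in some patients with Diamond-Blackfan anemia, had 5299 CPM in the LTT table and 5170 CPM in the STT table. RPS27A, which is made as a fusion to ubiquitin, had 3799 and 3862 CPM in the LTT and the STT table, and was thus among the top 20 genes of both. RPS14, the gene whose loss underlies the anemia of the 5q- syndrome in human patients, was at 3785 CPM in the LTT table and 3721 CPM in the STT table. RPS9 had 2861 and 2871 CPM, and RPS23 had 2382 and 2354 CPM, in the LTT and the STT table. Of the 10 highest genes 6 were of the small subunit, to which 29 of the 80 genes belong. The 10 highest held 57.5% of the summed CPM of all ribosomal protein genes in each table.

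The acidic stalk of the large subunit, which recruits the elongation factors, was unevenly represented. RPLP0, which anchors the stalk to the ribosome, had 2713 CPM in the LTT table and 2735 CPM in the STT table. RPLP2 had 1410 and 1396 CPM, and RPLP1, its partner in the dimers that extend from RPLP0, had 570 and 552 CPM in the LTT and the STT table. The 3 genes thus kept the same order in both tables, with RPLP0 highest and RPLP1 lowest. RPL5 and RPL11, which bind the 5S ribosomal RNA and, when unassembled, the p53 regulator MDM2, also differed in level, with RPL5 at 1731 CPM in the LTT table and 1911 CPM in the STT table and RPL11 at 331 and 326 CPM.

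Large-subunit genes had a lower median level than small-subunit genes, and the distributions overlapped. The median was 8.37 (331 CPM) for the large and 8.94 (490 CPM) for the small subunit in the LTT table, a difference, large minus small, of -0.57. In the STT table it was 8.30 (315 CPM) for the large and 8.98 (505 CPM) for the small subunit, a difference of -0.68. The quartiles of the large subunit in the LTT table were 5.15 and 9.19, and those of the small subunit 5.41 and 9.79. The genes at the median were RPL11 and RPL36 of the large subunit, in the LTT and the STT table, and RPS3 of the small subunit in both. Genes at level 10 or over numbered 7 in each subunit, which is 13.7% of large-subunit and 24.1% of small-subunit genes. Under level 4, or 16 CPM, were 11 of 51 large-subunit genes (21.6%) and 3 of 29 small-subunit genes (10.3%). The difference depended in part on the lowest genes: among genes of at least level 2 it was -0.34 in the LTT table. In the summed CPM the large subunit took 2.78% and the small 2.91% in the LTT table, and 2.83% and 2.98% in the STT table.

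**Figure D2:**
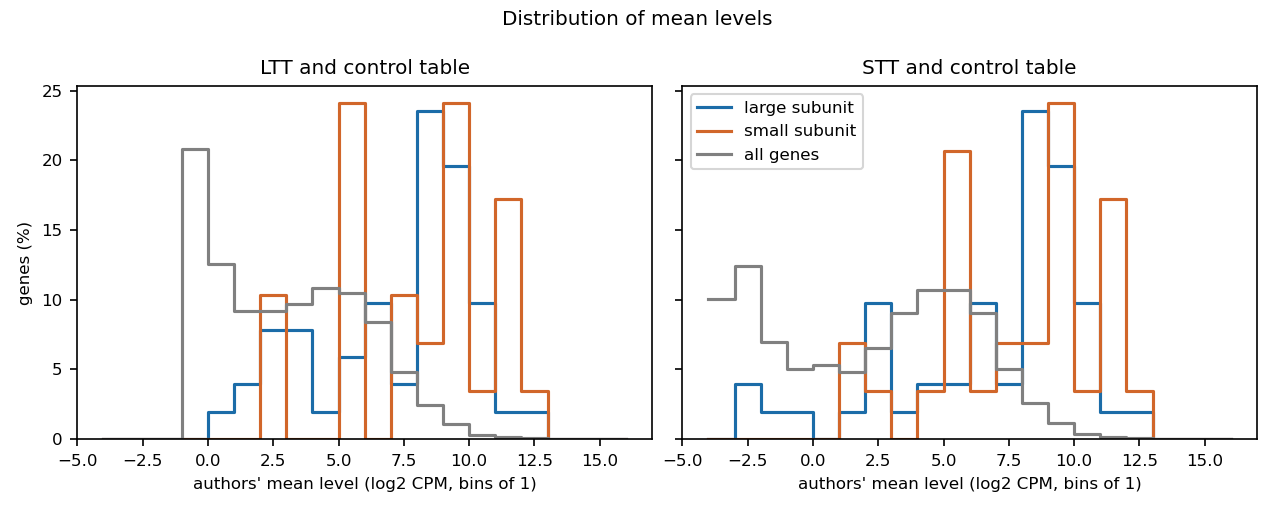
Share of genes, in percent, in each bin of 1 of the authors' mean level (log2 CPM) for the large subunit, the small subunit and all genes, in the LTT and control table (left) and the STT and control table (right). Both subunits have most genes at level 8 or over (56.9% of the large and 55.2% of the small in each table) and a smaller group of low genes, whereas 61.4% of all genes of the LTT table and 60.2% of those of the STT table are under level 4.

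A group of 14 genes, all of them canonical except RPL3L, lay under level 4 in each table. For genes up to level 6.5 (90.5 CPM) of the STT table, the whole reads in each of its 4 libraries were recovered from the mean, since only 1 set of 4 whole numbers gave the deposited value for 98.4% of 14178 genes and for all 30 ribosomal protein genes concerned, 19 of the large and 11 of the small subunit. These libraries, called A to D in order of size (5270053, 4321080, 4278556 and 3372644 effective reads), are 2 STT and 2 control libraries, and were not assigned to a group here. Intervals and limits given for reads cover counting error only.

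RPL39, which lines the peptide exit tunnel, had the fewest reads over libraries A to D, with 0, 0, 6 and 4. A count of 0 allows a level of up to 0.569 CPM in library A and 0.694 CPM in library B. RPL26, a protein at the tunnel exit, had 34 reads in library C and none in A, B and D, and RPL3L, known as the muscle paralog of RPL3, had 28 reads in library C and none in the others. The 34 reads of RPL26 have an exact Poisson interval (95%) of 23.5 to 47.5 reads, so that library C stood above the limit of 3 reads in the other libraries. Such patterns were not particular to these genes, since 99 genes had at least 20 reads in library A alone, 75 in B, 58 in C and 10 in D.

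RPL37 had 13, 1, 11 and 1 reads in libraries A to D, and RPL36A, which lies near the exit site for transfer RNA, had 9, 12, 25 and 2 reads. RPS12 had 49, 1, 6 and 40 reads, or 9.30, 0.231, 1.40 and 11.9 CPM, and was thus high in A and D and low in B and C. RPS2, near the entry of the messenger RNA channel, had 1.33, 2.78, 4.91 and 10.1 CPM in A to D. RPS20 had 1.90, 2.31, 9.35 and 10.1 CPM, higher in C and D than in A and B. RPL3, a protein close to the peptidyl transferase centre, had 3.42, 9.26, 4.67 and 5.34 CPM, and RPL7 had 9.30, 15.0, 4.44 and 5.34 CPM, both with their highest value in library B. RPL23 (5.88, 12.7, 6.31 and 7.71 CPM), RPL17 (9.11, 5.79, 4.91 and 8.60 CPM) and RPL9 (17.6, 17.4, 16.6 and 8.60 CPM) varied less between the libraries. Reads of ribosomal protein genes can also match their many processed pseudogenes, and how such reads were counted is not given in the sources used here, so that the low levels are uncertain. The part of shared reads in these levels was not tested.

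**Figure D3:**
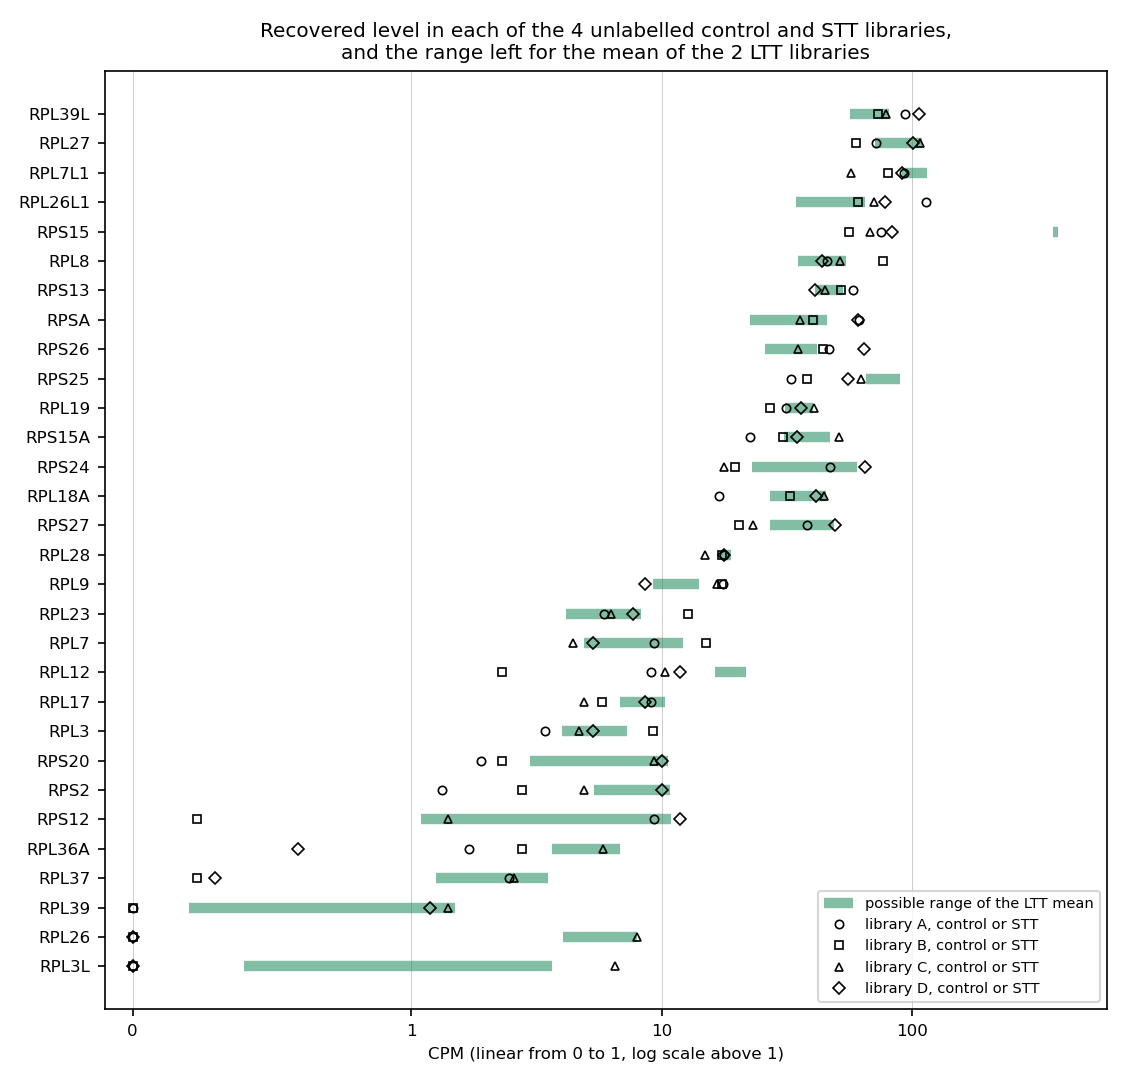
CPM of the 30 ribosomal protein genes whose reads were recovered, on an axis that is linear from 0 to 1 and logarithmic above, in the 4 unlabelled control and STT libraries A to D (symbols), with the range left for the mean of the 2 LTT libraries (bars). RPS15 is the gene whose bar, at 364 to 381 CPM, lies furthest to the right of its 4 symbols, at 56.2 to 83.0 CPM, and RPL26 and RPL3L have reads in library C alone.

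Among the 23 recovered genes of at least level 2, the highest of the 4 libraries exceeded the lowest by a median of 1.88 times, with a range of 1.19 to 5.31. Among the 6733 recovered genes of that level, those with reads in every library had a median of 2.29, with quartiles of 1.72 and 3.49. Genes without reads in a library have no such ratio and were left out here and below. The smallest ratio was that of RPL28, with 17.8, 17.4, 15.0 and 17.8 CPM in libraries A to D, and the largest that of RPS20. At level 4 or over the median ratio was 1.78 for 16 ribosomal protein genes, against 1.93 among the 4195 recovered genes. Between levels 2 and 4 it was 2.71 for 7 ribosomal protein genes, against 3.49 among the 2538 recovered genes. Several genes of both subunits were high in A and D, among them RPL39L and RPL7L1 of the large subunit. RPS24, which is needed for the maturation of the small-subunit RNA, had 47.1, 19.7, 17.8 and 64.6 CPM, and RPS27 had 38.1, 20.4, 23.1 and 49.2 CPM. RPSA, also known as the laminin receptor, had 61.5, 40.3, 35.8 and 61.1 CPM, again with A and D above B and C. RPS15A, however, was highest in C, with 22.6, 30.5, 51.0 and 34.7 CPM. RPS13 and RPS25 also did not have both A and D above B and C.

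Several paralogs exceeded the canonical gene they resemble. RPL39L had 78.8 CPM in the LTT table and 87.0 CPM in the STT table, where RPL39 had 1.30 and 0.280 CPM. RPL26L1 had 65.8 and 78.6 CPM in the LTT and the STT table, against 4.55 and 0.199 CPM for RPL26. RPL7L1, a protein of ribosome assembly, had 92.3 and 79.1 CPM, 10.2 and 10.3 times the values of RPL7 in the LTT and the STT table. RPS27L, a p53 target in human cells, had 266 and 282 CPM in the LTT and the STT table, 7.41 and 9.19 times the values of RPS27. RPL36AL, outside the naming rule but a close relative of RPL36A, had 100.4 and 95.1 CPM, against 4.53 and 2.09 CPM for RPL36A. The paralog was the lower of the pair for RPL22L1, with 442 CPM in the LTT table and 471 CPM in the STT table, against 796 and 773 CPM for RPL22, and for RPL3L, with 2.39 and 0.189 CPM, against 6.20 and 5.36 CPM for RPL3. RPL10, the canonical relative of RPL10L and a protein that joins the large subunit late in assembly, had 430 and 403 CPM. Paralog and canonical gene share sequence, so that reads may have been split between them.

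RPL39L, RPL7L1 and RPL26L1 had reads in each of the 4 libraries. RPL39L had 93.5, 73.4, 78.5 and 106 CPM in libraries A to D, and RPL7L1 had 93.2, 80.5, 57.0 and 91.3 CPM. RPL26L1 was highest in library A, with 114, 60.6, 70.4 and 78.3 CPM. In every one of the 4 libraries RPL39L and RPL26L1 were above RPL39 and RPL26.

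The comparison of the LTT table with the STT table asked whether ribosomal protein levels shifted with the LTT libraries, since the controls are common to both tables. The means of the 2 tables were nearly the same for most ribosomal protein genes. As 2 of the 4 libraries of each table are the same controls, a difference between the tables understates one between LTT and STT libraries. Over 73 genes of at least level 2 in both tables the median difference, LTT table minus STT table, was 0.02, with 0.02 for 46 large-subunit and 0.02 for 27 small-subunit genes, against 0.08 for 9019 genes. Of the 73 genes 7 were higher in the LTT table by at least 0.25 (27.3% of all genes), and 1 was lower by at least 0.25 (6.23% of all genes), while with the all-gene median subtracted 4 were higher and 4 lower. At this level, however, the columns are different kinds of mean, near an arithmetic mean in the LTT table and a geometric mean in the STT table, and over the recovered genes described above the arithmetic mean of libraries A to D exceeded the geometric mean by a median of 0.07. At level 6 or over, where both kinds of mean lie closer, 2 of 55 ribosomal protein genes were higher in the LTT table by at least 0.25, against 7.97% of all genes, 1 was lower, against 2.3% of all genes, and 52 were within 0.25. The 2 higher genes were RPS15 and RPL36, and the lower gene was RPL26L1.

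**Figure D4:**
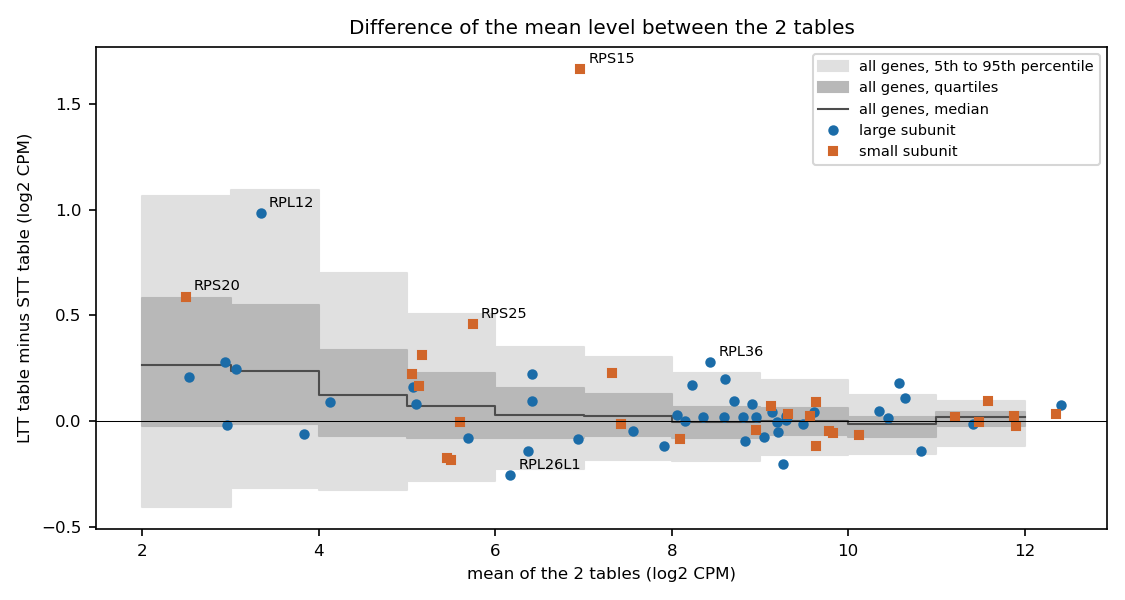
Difference of the authors' mean level, LTT table minus STT table (log2 CPM), against the mean of both tables, for ribosomal protein genes of at least level 2 in each (circles, large subunit; squares, small subunit), with the median, quartiles and 5th to 95th percentile over all genes in bins of 1 as a line and shaded bands. Most points lie near 0 and RPS15, at 1.67, stands apart from the others.

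RPS15, a small-subunit protein that reaches the decoding site, was the exception. It had 75.5, 56.2, 68.0 and 83.0 CPM in the STT and control libraries A to D, with 398, 243, 291 and 280 reads. In the LTT table its mean was 222 CPM, against 70.7 CPM as the mean of A to D. As 2 of the libraries A to D are the controls of the LTT table, the mean of the 2 LTT libraries can be bounded without knowing which, and it lay between 364 and 381 CPM, 4.38 times or more the highest of the 4 libraries. The 4 libraries lie close together and the LTT mean lies outside their range. This bound takes the controls to have the same CPM in both tables. It also takes the LTT table value, with the lowest value taken off, as an exact arithmetic mean, though the column is only near one. How the 2 LTT libraries share the reads is not known from a mean.

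The level of RPS15 in the LTT table was 7.80, against 6.13 in the STT table, and its rank by level among all genes 845 in the LTT table, against 2779 in the STT table. The macrophage markers, given here because they also varied between libraries, summed to a mean of 8.68 CPM in the LTT table over 6 of 7 genes. Over the 3 genes recovered, the sum in libraries A to D had a mean of 3.85 CPM and a range of 0 to 13.1 CPM. These 3 genes, CD163, C1QC and C1QB, had 3.38, 2.31 and 1.41 CPM in the LTT table with the lowest value taken off. LYZ had no level in either table. The part of the macrophage markers in the level of RPS15 was not tested.

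The same bound was set for the other recovered genes. Of 23 ribosomal protein genes of at least level 2, the LTT mean lay above all of libraries A to D for 3, against 9.19% of 6733 genes, and below all of them for 0, against 5.11%. RPL12, which lies at the base of the stalk, had an LTT mean of 16.3 to 21.7 CPM, against 9.11, 2.31, 10.3 and 11.9 CPM in libraries A to D. RPS25, which is used by some viral messages to recruit the ribosome, had an LTT mean of 65.5 to 89.1 CPM, against 32.8, 38.0, 62.6 and 55.4 CPM. For RPS25 the lower end of the range is next to the highest library, so that the distance is small. RPL12 and RPS25 each overlap another annotated gene in RefSeq, which makes their counts uncertain, and RPS15 was not matched in RefSeq, so that its overlap was not examined. The 3 of 23 genes with an LTT mean above all 4 libraries are a share near the 9.19% over all genes, and for the other 20 genes the range of the LTT mean overlapped the 4 libraries.

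Differences for further genes were smaller or depended on the kind of mean. RPL36 was at 382 CPM in the LTT table and 315 CPM in the STT table, a difference of 0.28, and its reads were not recovered. RPS20, RPL17 and RPS24 differed by 0.59, 0.28 and 0.31 on the deposited levels, but on arithmetic means of the recovered reads by 0.10, 0.14 and 0.08. RPL26L1 had the most negative difference, -0.26, and on arithmetic means -0.31. RPL35A (-0.20), RPSA (-0.19), RPS26 (-0.17) and RPL5 (-0.14) followed on the deposited levels. RPL26 and RPL3L, which are under level 2 in the STT table, differed by 4.52 and 3.65 on the deposited levels and by 1.01 and 0.17 on arithmetic means, and the LTT mean of RPL26 was 4.04 to 8.01 CPM, against 7.95 CPM in library C.

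The genes mutated in Diamond-Blackfan anemia in human patients were mostly abundant in these cells. Of 19 such genes 17 had a level, with a median of 8.32 in the LTT table and 8.15 in the STT table. RPS19, the gene most often mutated in the disease, had 765 CPM in the LTT table and 832 CPM in the STT table. RPL35A had 570 and 657 CPM, RPS7 had 645 and 630 CPM, and RPL18 had 715 and 723 CPM in the LTT and the STT table. RPL15 (450 and 443 CPM), RPL35 (319 and 284 CPM), RPL31 (269 and 264 CPM) and RPS29 (170 and 172 CPM) were in the middle of the range. RPL27 had 71.5, 59.7, 108 and 101 CPM in libraries A to D, and RPS26, which contacts the messenger RNA at the exit channel, had 46.5, 44.0, 35.1 and 64.0 CPM. RPL26 was the lowest of the list, and RPS28 the highest. In 16 genes of at least level 2 the median difference between the tables was 0.02, and 1 gene, RPS24, was higher by at least 0.25, against 27.3% of all genes, while none was lower, against 6.23%. Most of these genes were at level 6 or over, where the shares over all genes were 7.97% and 2.3%. On arithmetic means the difference of RPS24 was 0.08.

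Partners that carry another name were as abundant as the ribosomal protein genes. FAU, whose product is processed into the small-subunit protein eS30, had 1421 CPM in the LTT table and 1568 CPM in the STT table. GNB2L1, the scaffold protein RACK1 on the small subunit, had 763 and 813 CPM in the LTT and the STT table. NACA and BTF3, the subunits of the complex that binds nascent chains, had 779 and 214 CPM in the LTT table and 766 and 206 CPM in the STT table. None of these genes differed between the tables by 0.25.

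Genes of translation and of ribosome assembly were compared in the same way, against 27.3% of all genes higher and 6.23% lower in the LTT table by at least 0.25. All 10 elongation and termination genes and most initiation genes were at level 6 or over, where these shares were 7.97% and 2.3%. Of the 10 elongation and termination genes none was past 0.25 in either direction, with a median difference of -0.04, and their levels in the LTT table ranged between 6.20 for EEF1A1, which delivers transfer RNA, and 9.42 for EEF1G. Of the 27 initiation genes 2 were higher in the LTT table, EIF4A2 by 0.63 and EIF3L by 0.27, and none was lower. PABPC1, the poly(A) binding protein, was the highest of them at 12.08 in the LTT table and 11.98 in the STT table. Of 35 ribosome biogenesis genes 3 were higher (RRN3, POLR1C and BOP1) and 5 lower (RRP9, NMD3, POLR1A, NHP2 and RRP12) in the LTT table, with a median difference of -0.06, and FBL, the methyltransferase of ribosomal RNA, was highest at 10.61 in the LTT table and 10.66 in the STT table. The 10 genes of growth control, among them LARP1, which binds the messenger RNAs of ribosomal proteins, and MTOR, had a median difference of 0.14 with none past 0.25. LARP1 had 289.5 CPM in the LTT table and 303 CPM in the STT table.

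Many ribosomal protein genes carry the genes of small nucleolar RNAs, which guide the modification of ribosomal RNA, in their introns. In the RefSeq annotation of Panubis1.0, used for names and neighbours only, 73 of the 80 genes were found, and 27 of these (37.0%) held a small nucleolar RNA gene within their bounds, against 365 of 10452 protein-coding genes with a level (3.49%). There were 55 such RNA genes in all, in 19 of 48 large-subunit genes (39.6%) and 8 of 25 small-subunit genes (32%). RPL4, RPL3, RPL7A, RPL13A and RPL23A each held 4. By level in the LTT table, 9 of 13 genes under level 4 held such a gene, and 18 of 60 at level 4 or over, which is a description of few genes. The 27 host genes had a median level of 8.15 in the LTT table and 8.15 in the STT table, against 8.68 and 8.57 for the other 46.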

How the data were processed

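RNA was measured in sorted bone marrow cells of 2 LTT, 2 STT and 2 control samples, and each of the 2 deposited tables pools 4 libraries. For alignment the authors used BWA MEM and the Panu_2.0 assembly, for counting featureCounts, and for the deposited mean log2 CPM of each gene edgeR. The libraries were strand-specific 3′ end libraries. Tool versions: not given in the sources used here. Not used were the authors' fold changes, p-values, q-values, call marks and pathway results, also in the deposited tables, and 0 columns of single samples were left out. Thus neither treatment was compared with control, and nothing was tested.

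Members and lists were chosen with earlier results of these data known. Named genes were the 10 highest and 10 lowest by level, the 5 largest and 5 smallest differences between tables, the genes at the median, the stalk genes, RPSA, RPS27A, paralogs and their relatives, and the Diamond-Blackfan list; other genes were named by position in a list or by their values once seen. Some genes are counted but not reported here by name. Differences past 0.25 were counted among genes of at least level 2.

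The deposited STT column equals the mean of 4 log2 CPM with a prior count of 0.25. Its lowest values gave the 4 library sizes, and whole reads were solved for genes up to level 6.5 with a tolerance of 2e-14, which was tested on simulated data. The LTT column was taken as an average CPM with a prior count of 2. The mean of the LTT libraries was bounded by subtracting from 4 times the LTT table mean the 2 highest or the 2 lowest of libraries A to D. This step, the limit of level 6, the classes at levels 4, 8 and 10 and the neighbour counts were chosen after seeing the data. Samples were named as in the labels, and libraries A to D were given no group. Calculations used Python 3.11.15, numpy 2.4.6, pandas 2.3.3, scipy 1.17.1 and numba 0.67.0.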

Additional observations from a re-analysis of the deposited data

How the results depend on the processing

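The difference between subunits kept its direction under each alternative run. A change of 0.1 on the log2 scale, a factor of 1.5 for counts and the 95% binomial interval for shares were taken as the limits of a move, as no replicate spread was available, and these limits were set after seeing the data. The difference of the medians, large minus small, was -0.46 without paralogs, -0.34 at level 2 or over and -0.85 with means in the LTT table (-0.57 as reported), and -0.55 at level 2 or over and -0.97 with means in the STT table (-0.68 as reported). The share of the summed CPM was 5.74% with the lowest value taken off and 6.37% without the 10 highest other genes in the LTT table, and 6.54% without those genes in the STT table. Genes higher in the LTT table numbered 17 at a threshold of 0.15, 3 at 0.5, 4 with the all-gene median subtracted, 14 without a filter on low levels and 3 of 23 on arithmetic means, against 7 as reported. Genes lower in the LTT table numbered 4 at 0.15, 0 at 0.5 and 4 with the all-gene median subtracted, against 1. The median difference between tables was 0.02 and, with the all-gene median subtracted, -0.06, the remaining alternatives giving 0.02 to 0.05. Subtracting the all-gene median therefore changed the split of higher and lower genes to 4 and 4. The arithmetic means and the count without a filter were added after seeing the data.

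No paired analysis was possible because the columns pool all samples of a table and the recovered libraries carry no label, and no replicate was left out. The planned search for pyrimidine tracts at transcript starts was not run, since sequences were not analysed here. Depth limits the lowest genes, which had 10 to 142 reads over 4 libraries for those under level 2.9 in the STT table.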
